A study of Brassica juncea with 4 samples.

Results

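miR1885 and miR1140 are miRNAs named for Brassica species, miR1885 for B. rapa (prefix bra) and miR1140 for B. napus (prefix bna), and both were found in floral buds of B. juncea, mustard. All entries with either number and either prefix were taken, with both arms of each hairpin. This gave 4 distinct sequences of the 248 in the miRNA tables, 2 from each hairpin. The 248 remain of 288 entries after identical sequences were joined. The deposited tables place all 4 among sequences that, like their precursors, map nowhere in the genome of Arabidopsis thaliana.

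Buds of a mustard line with cytoplasmic male sterility (CMS) were compared with those of the maintainer fertile line (MF), with 1 small RNA library and 1 degradome library from each. The CMS line carries cytoplasm from B. rapa in a nucleus brought close to that of fertile B. juncea by repeated backcrossing, and MF is the self-crossed fertile line. Whole sets of buds of an inflorescence were pooled over several plants, so stages and floral organs are mixed. No library was replicated, hence every test compares 2 libraries and not 2 lines, and intervals cover counting error only. PCR copies were not told apart from separate molecules. In pooled buds, fewer cells making a miRNA and less of it per cell cannot be told apart.

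A plant miRNA is cut by DICER-LIKE1 from a hairpin, as a duplex of both arms with short 3′ overhangs. One strand is usually kept by an ARGONAUTE protein and guides cleavage or translational repression of RNAs that pair with it. The length and first base of that strand matter. In Arabidopsis, AGO1 favours a first U, AGO2 a first A and AGO5 a first C, and miRNAs of 22 nt are known to start secondary siRNAs from the RNAs they cut. The mature miR1885 described in B. rapa targets disease resistance genes of the TIR-NBS-LRR class and is induced by turnip mosaic virus. Both miR1885 sequences here are named as arms (-p3 and -p5) rather than as the mature miR1885, and whether they share that role was not tested. No role is stated for miR1140.

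The sequences are shown because their lengths, ends and pairing recur in the results. They are written 5′ to 3′ as DNA, with the seed (bases 2 to 8) in capitals.
bra-MIR1885-p3: tACATCTTctccgcggaagctc
bra-MIR1885-p5: aGCTTCCTctagaagatgtgc
bna-miR1140: aCAGCCTAaaccaatcggagc
bna-MIR1140-p5: cCGATTGGctttaggctgttgt

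Each hairpin gave 1 arm of 22 nt and 1 of 21 nt. In miR1885 the 22-nt arm was the 3′ arm, bra-MIR1885-p3, and in miR1140 it was the 5′ arm, bna-MIR1140-p5. The file does not name the arm of bna-miR1140, and it was taken as the 3′ arm because its partner is listed as -p5. bra-MIR1885-p3 starts with T (U in RNA), as do 102 of the 248 sequences. bra-MIR1885-p5 and bna-miR1140 start with A, and bna-MIR1140-p5 with C. GC content was 54.5% for bra-MIR1885-p3, 47.6% for bra-MIR1885-p5, 52.4% for bna-miR1140 and 50% for bna-MIR1140-p5.

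When the arms of each hairpin were folded together with RNAcofold, both gave a duplex of 18 pairs. That of miR1885 held 1 G-U pair, had a predicted energy of -23.0 kcal/mol and left 1 unpaired base at each 3′ end. That of miR1140 held no G-U pair (0 of 18), had an energy of -28.8 kcal/mol and left 3 unpaired bases at each 3′ end. The hairpins themselves were not analysed here, so the fold is that of the 2 arms alone.

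None of the 4 shares its seed with any other sequence listed. The closest sequence to bna-MIR1140-p5 was 7 edits away, and those to bna-miR1140 and bra-MIR1885-p5 were 9 edits away. bra-MIR1885-p3 had 1 close relative, at 1 edit, and the next was 9 edits away. That relative is listed under ath-MIR402, a different miRNA of Arabidopsis, with 12 substitutions written into its name. Its sequence is bra-MIR1885-p3 without the first base.
listed under ath-MIR402: aCATCTTCtccgcggaagctc

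Without that base the form is 21 nt long, starts with A and has its seed moved by 1 base. It is called the shortened form here, and by its name it falls outside the entries chosen for miR1885.

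bra-MIR1885-p3 was among the most abundant miRNAs of the buds. The MF library held 1087 of its raw reads and the CMS library 818, which ranked it 10 of 248 in MF and 11 in CMS. Per 1000000 mappable reads (RPM) its level was 148 in MF, with a 95% interval of 139.6 to 157, and 256 in CMS, with an interval of 239 to 274. RPM values ran higher in CMS across the miRNAs listed. Over 86 sequences with reads in both libraries and at least 20 in all, the median log2 ratio of CMS to MF was 0.85. A higher RPM in CMS, here and below, is therefore not in itself particular to a sequence. Of the sequences listed, the nearest in level in both libraries were ath-miR171a (898 normalised reads in MF, 1022 in CMS), ath-miR408 (805 and 1272) and ptc-miR319i_R+1_1ss5GA, an miR319 variant named for poplar (664 and 613), beside 974 and 913 for bra-MIR1885-p3. In Arabidopsis miR171 targets GRAS transcription factors and miR408 targets RNAs of copper proteins. These neighbours were picked by level alone, so their nearness is not a result about conserved families.

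bra-MIR1885-p5, its partner, ranked 34 in MF with 102 raw reads and 31 in CMS with 89. This came to 13.9 RPM in MF (11.3 to 16.9) against 27.9 RPM in CMS (22.4 to 34.3). Its closest neighbours in level were ath-miR396a, with 102 and 99 raw reads, ath-miR403, with 94 and 76, and ath-MIR166b-p5, with 78 and 103. In Arabidopsis miR396 targets growth-regulating factors and miR403 targets AGO2.

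The miR1140 sequences were far less abundant. bna-miR1140 ranked 84 in MF with 12 raw reads and 48 in CMS with 33. Its level was 1.64 RPM in MF (0.846 to 2.86) against 10.3 RPM in CMS (7.11 to 14.5). bna-MIR1140-p5 ranked 63 in MF with 27 raw reads and 51 in CMS with 30. Its level was 3.68 RPM in MF (2.43 to 5.36) against 9.40 RPM in CMS (6.34 to 13.4). In CMS the intervals of the 2 miR1140 arms overlapped almost whole, and in MF they overlapped in part. Both had a neighbour in level from the hairpin of miR824, which targets the MADS-box gene AGL16 in Arabidopsis. For bna-miR1140 they were ath-miR156h_L+1 (16 raw reads against 42), ath-miR172b*_R+1 (15 against 23) and ath-miR824 (18 against 25), and for bna-MIR1140-p5 they were ath-MIR824-p3 (23 against 33), PC-3p-5, a new candidate miRNA of the study (35 against 29), and ath-MIR166d-p5_1ss6AG (21 against 34).

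**Figure D1:**
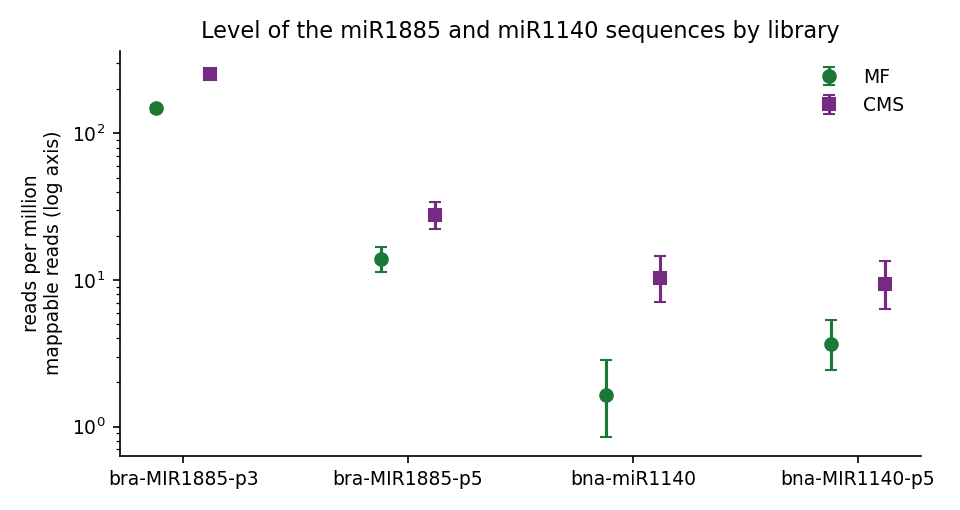
Reads per 1000000 mappable reads (log axis) of the 4 sequences in the MF library (circles) and the CMS library (squares), with exact Poisson 95% intervals. On this scale bra-MIR1885-p3 lies at 148 and 256, and bna-miR1140 at 1.64 and 10.3. The median log2 ratio of CMS to MF on this scale was 0.85 over 86 sequences.

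The question of the small RNA comparison was which miRNAs differ between sterile and fertile buds. The deposited normalised reads were compared with the tests the study used, but with a limit for the Audic-Claverie test that was chosen here. A sequence was called when its Fisher's exact p and its chi-squared p were under 0.01. Its Audic-Claverie probability had also to be under 0.01 over the number of sequences. That is the point probability of the CMS count given the MF count if both libraries held the same level. It is not a tail p-value and is low for abundant sequences even at like levels. By this rule 35 of 248 sequences (14.1%) were called, 13 of them higher in CMS (5.24%) and 22 lower (8.87%). Of the 4 sequences 1 was called, bna-miR1140, as higher in CMS, and 4 are too few to read against that background.

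bna-miR1140 had 11 normalised reads in MF and 37 in CMS. The ratio was 3.42-fold (95% interval 1.72 to 7.28), or 1.78 on the log2 scale (0.79 to 2.86). Its two-sided Fisher's exact p was 2.222e-04 and its chi-squared p was 1.749e-04. Its Audic-Claverie probability of 4.014e-05 lay just inside the limit of 4.032e-05 over 248 sequences. It lay outside the limit of 3.472e-05 over 288 entries, so the call ends when identical sequences are not joined. That limit called 34 of the distinct sequences in place of 35, and the sequence lost was bna-miR1140. The call thus rests on the choice of limit made here. The study's own list of differing miRNAs does not include bna-miR1140. The call also ended with a two-sided exact binomial test on the raw reads (p = 1.234e-04 against the same limit over 248) and when the libraries were scaled to total miRNA reads (log2 1.25, Audic-Claverie 0.00148). CMS was higher than MF under all 5 other scalings of the libraries.

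The other 3 sequences were not called. bra-MIR1885-p3 had 974 normalised reads in MF and 913 in CMS, a ratio of 0.937-fold (0.855 to 1.03) or -0.09 on the log2 scale (-0.23 to 0.04), with a Fisher's exact p of 0.167. This interval leaves room for a fall of at most 0.23 and a rise of at most 0.04 on the log2 scale under this scaling. bra-MIR1885-p5 had 91 and 99 normalised reads, a log2 ratio of 0.12 (-0.31 to 0.54) and a Fisher's exact p of 0.612. bna-MIR1140-p5 had 24 and 33, a log2 ratio of 0.47 (-0.33 to 1.27) and a Fisher's exact p of 0.289. That interval reaches from below 0 to more than 2-fold higher in CMS, and the call depends on the scaling, as the ratio of 1.98 after scaling to raw reads was called.

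**Figure D2:**
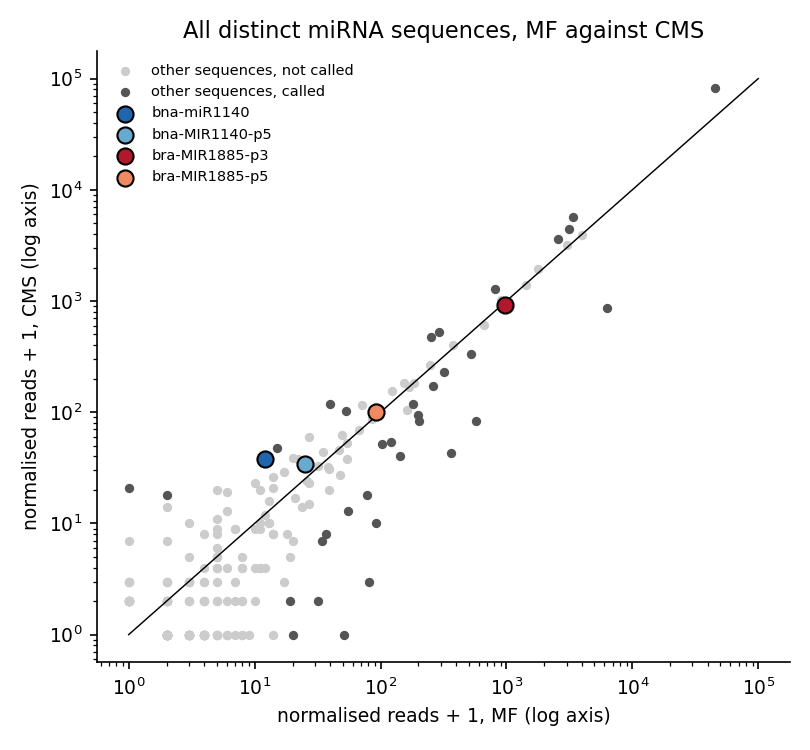
Normalised reads plus 1 in MF (x axis, log) and CMS (y axis, log) for all 248 distinct sequences, with called sequences in dark grey and the 4 miR1885 and miR1140 sequences in colour. The line marks equal values. bra-MIR1885-p3, with 974 and 913, and bra-MIR1885-p5, with 91 and 99, lie near the line, and bna-miR1140 lies above it with 11 and 37.

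Summed over both arms, miR1885 had 1189 raw reads in MF against 907 in CMS, a log2 ratio of -0.07 (-0.20 to 0.05). miR1140 had 39 against 63, a log2 ratio of 1.01 (0.41 to 1.62) or 2.01-fold (1.33 to 3.08). These intervals do not overlap. The direction of the miR1885 sum was set by the scaling. Scaled to mappable reads, the miR1885 sum had a log2 ratio of 0.81, and scaled to total miRNA reads -0.60. The miR1140 sum stayed above 0 but was 0.48 when scaled to total miRNA reads, where bna-MIR1140-p5 alone was at -0.057. Relative to the deposited factors, scaling to mappable reads shifts every log2 ratio by 0.88, scaling to raw reads by 1.51 and scaling to total miRNA reads by -0.52. The last turns on 1 sequence, shared by ath-miR319a and ath-miR319b, with 50580 raw reads in MF against 74029 in CMS. Without it the shift is 0.06. bra-MIR1885-p3 took 1.20% of all miRNA reads in MF and 0.779% in CMS, but 2.70% and 2.64% of those other than miR319a/b.

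**Figure D3:**
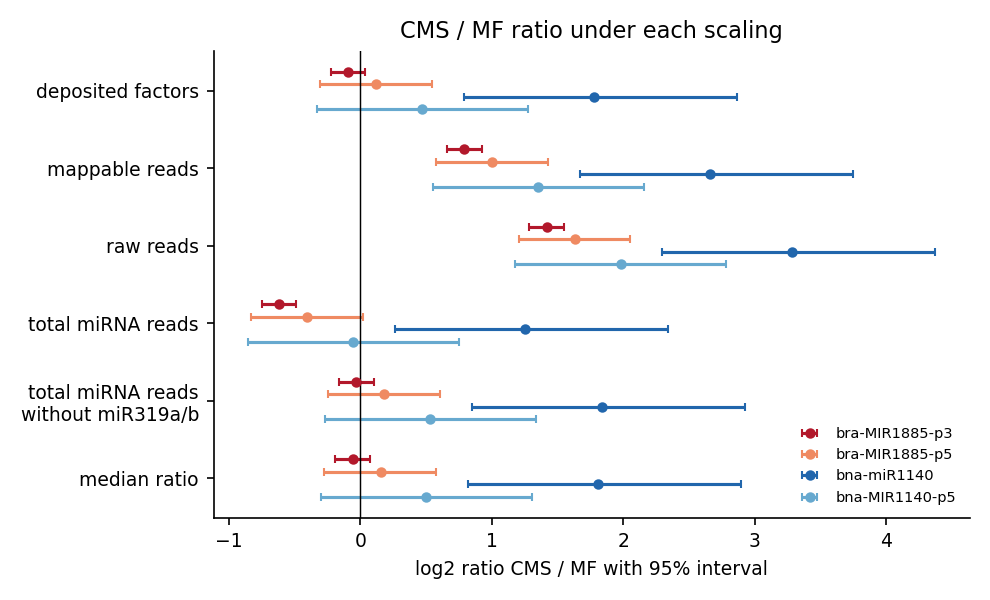
log2 ratio of CMS to MF for the 4 sequences (x axis, exact 95% intervals) under the deposited factors and 5 other scalings of the libraries (y axis). The whole set moves together with the scaling, bna-miR1140 stays above 0 throughout (1.25 to 3.29), and bra-MIR1885-p3 lies on either side of 0 (-0.62 to 1.42).

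The ratio of one hairpin to the other within a library does not depend on scaling. miR1885 had 30.5 reads for each miR1140 read in MF and 14.4 in CMS, which differ 2.12-fold (exact interval 1.38 to 3.27). For bra-MIR1885-p3 over bna-miR1140 the ratios were 90.6 and 24.8, and these differ 3.65-fold (1.82 to 7.82). Both were computed after the values had been seen and are given as descriptions. Within miR1140 the reads of bna-miR1140 went from 12 in MF to 33 in CMS, and those of bna-MIR1140-p5 from 27 to 30.

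The balance of the arms was not alike in the 2 hairpins. miR1885 was found mainly as its 3′ arm, with 91.4% of reads in MF (exact interval 89.7 to 93.0) against 90.2% in CMS (88.1 to 92.0). The difference of -1.23 percentage points was not called (two-sided Fisher's exact p = 0.358, adjusted 0.915 over 83 arm pairs). In miR1140 the 3′ arm had 30.8% of reads in MF (17.02 to 47.6) against 52.4% in CMS (39.4 to 65.1). bna-MIR1140-p5 was thus the more abundant arm in MF, and the 2 arms were close in CMS. The difference of 21.6 points had a Fisher's exact p of 0.0409, which did not hold after adjustment (0.340).

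Of the 83 arm pairs, 5 were called (6.02%), and neither hairpin was among them. In 39 pairs with at least 20 reads in each library, the median share of the major arm was 97.9% in MF and 97.4% in CMS. The median absolute difference between libraries was 1.05 points. Many of these pairs hold an arm sequence shared by several hairpins, whose reads then enter more than 1 pair. For instance, ath-miR160a, with 4440 raw reads in MF, was set against several 3′ arms. Neither miR1885 nor miR1140 has a shared arm, and how far sharing moved the medians was not tested. 6 of the 39, miR1140 included, had at most 70% in the major arm in both libraries. Among the 6, the pairs of ath-miR172a and ath-miR172e share a 5′ arm. In 2 pairs, one of them miR1140, the major arm was not the same in both. miR1140 is the shallower of the hairpins, with 39 and 63 reads, so its shares are known only within about the intervals given.

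**Figure D4:**
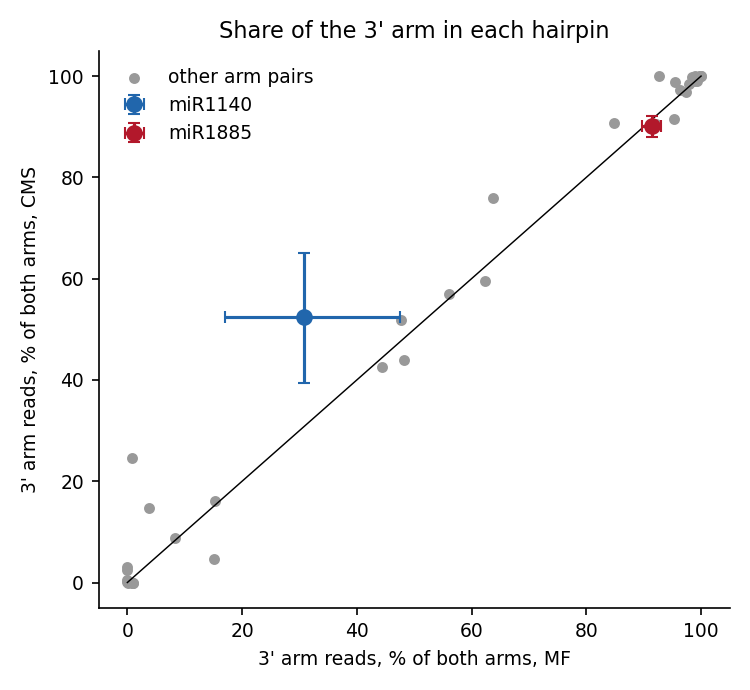
Share of the 3′ arm among the reads of both arms in MF (x axis, %) and CMS (y axis, %) for the 39 arm pairs with at least 20 reads in each library, with exact 95% intervals for miR1885 and miR1140. The line marks equal shares. miR1885 lies on it at 91.4% and 90.2%, and miR1140 lies above it at 30.8% and 52.4%, with intervals that reach across a wide range.

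The shortened form of bra-MIR1885-p3 had 19 raw reads in MF against 6 in CMS, beside 1087 and 818 of the full sequence. Its share of both was 1.72% in MF (1.04 to 2.67) against 0.728% in CMS (0.268 to 1.58). The difference was not called (Fisher's exact p = 0.0671, adjusted 0.107 over 8 pairs of full and shortened sequences). Of the 8 pairs 3 were called (37.5%), all within the miR159 family. The miR1885 pair was the only one of the 8 that differed at its 5′ end, and the other 7 differed at the 3′ end. In the predicted duplex the base that the shortened form lacks is paired with bra-MIR1885-p5.

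Among the 23 listed miRNA sequences of 22 nt, bra-MIR1885-p3 held most of the reads. It held 86.0% of the 22-nt miRNA reads in MF (84.0 to 87.9), 1087 of 1264, and 85.5% in CMS (83.1 to 87.6), 818 of 957. The next was ath-MIR319a-p5, with 53 raw reads against 56. bna-MIR1140-p5 was the fourth in MF, with 27 reads or 2.14% (1.41 to 3.09), and the third in CMS, with 30 reads or 3.13% (2.12 to 4.45). Of the 23 sequences, 15 had at most 10 reads over both libraries, 4 had at least 20, and 0 of the 23 were called, beside 35 of all 248 (14.1%). Families that, like miR1885, are known in other plants to target NBS-LRR genes were searched by name. Of 8 such families, miR1885 was the 1 listed, with 2 entries, and the other 7 (miR472, miR482, miR825, miR1507, miR2109, miR2118 and miR5300) had 0 entries. miR1885 had been chosen beforehand, so its presence is not a result. A search by name also misses any sequence listed under another name.

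The 13 sequences listed as mapping nowhere in Arabidopsis had 4305 raw reads in MF against 3431 in CMS. The 4 miR1885 and miR1140 sequences held 1228 and 970 of them. Of the 13, 1 was called higher in CMS, bna-miR1140, and 3 lower, beside 5.24% and 8.87% of all 248. Over the 12 with at least 20 reads their median log2 ratio was -0.05, with 1 sequence that had 0 reads in CMS set to the floor of 3 reads. Over the 88 such sequences of all kinds, with 2 at 0 in CMS set likewise, it was -0.04, and over the 4 it was 0.29. Among 37 sequences named for species other than Arabidopsis, 1 was called higher, again bna-miR1140, and 8 lower, against the same background.

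The degradome libraries addressed which RNAs these miRNAs cut. In this assay the 5′ ends of cut RNAs are sequenced, and a pile of ends opposite the middle of a paired miRNA marks a cleavage site. For MF 838 sites in 335 genes were listed, and for CMS 768 sites in 247 genes. Each listed site pairs a miRNA with a position in a transcript. The same cut can therefore be listed several times, for related miRNAs and for several transcripts of a gene. In both libraries, 0 sites belonged to miR1885, miR1140 or the shortened form. Without category 4, the weakest, 527 sites remained in MF and 524 in CMS, and with a CleaveLand p-value under 0.05, 105 and 242. Any part of a list with 0 such sites must also hold 0, so these filters add no evidence. No comparison of cleavage reads between CMS and MF could be made for these miRNAs. The tables list only sites that passed the search, so no upper limit follows from these zeros.

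Only Arabidopsis cDNA was searched, with 7717843 mapped degradome reads in MF and 4967302 in CMS. A Brassica RNA with no close Arabidopsis counterpart was therefore out of reach, and how much this bears on the empty result was not tested. Of all 248 sequences, 71 (28.6%) had a site in at least 1 table. Among the 12 with at least as many raw reads over both libraries as bra-MIR1885-p3, itself included, 9 had one (75%). Those without were bra-MIR1885-p3, ath-miR408 and ppt-miR894_R+1. Of the 13 that map nowhere in Arabidopsis, 3 had sites (23.1%): bdi-miR5059_L-3 with 5 in MF and 3 in CMS, pab-MIR947-p3 with 26 and 15, and ptc-miR319i_R+1_1ss5GA with 4 and 4. bdi-miR5059_L-3 is only 17 nt long, and pab-MIR947-p3 is 15 nt long and had 0 raw reads in CMS. These shares count sites of any category and p-value. With a CleaveLand p-value under 0.05, 2 miRNAs named for other species kept a site in MF and 4 in CMS.

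The known targets of mature miR1885 in B. rapa are disease resistance genes. For MF 0 sites lay in an RNA annotated as a disease resistance gene, and for CMS 1 did. It was in AT5G18370, a TIR-NBS-LRR gene, at position 3287 of the transcript, and was assigned to ath-MIR414-p5. It rested on 1 read, in category 4, with a CleaveLand p-value of 0.99986.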

How the data were processed

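The labels gave each library its line and assay. From the small RNA reads the authors trimmed adapters, searched miRBase 18.0 and Arabidopsis sequences with the mappable reads, and deposited for each miRNA a count of raw reads and a whole-number normalized value, which is a score and not a count. The normalization factor, not given in the sources used here, was recovered from the most abundant sequence as 0.896 (MF) and 1.12 (CMS). Degradome reads were aligned by the authors to Arabidopsis cDNA (TAIR10) and passed to CleaveLand, and the deposited values per site are a read count, an alignment score, a category and a p-value. Ratios and p-values of the authors' own comparison were not used.

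Identical sequences were joined, and calls used the Audic-Claverie point probability, Fisher's exact and chi-squared tests on normalized values, with totals of 1000000 and a threshold of 0.01. Those values are scaled and rounded and the totals are set ones, so these 3 tests do not measure counting error exactly. Each ratio was computed from raw counts with the recovered factors and an exact conditional (Clopper-Pearson) 95% interval, with 0 reads set to 3. Arm and shortened-form shares were compared by Fisher's exact test on raw counts, Benjamini-Hochberg adjusted, at 0.05. Shortened forms lack up to 3 end bases. Neighbours in level are the 3 sequences nearest in log2 normalized reads over both libraries, and named miRNAs are the members, these neighbours and the lists. Depth was 11845753 raw and 7331757 mappable reads in MF, and 3339182 and 3192676 in CMS, with 90880 and 105033 miRNA reads, so that 3 reads equal 0.409 and 0.940 per 1000000 mappable reads. The members, lists and tests were chosen with earlier results of these data known. Alternatives were 5 scalings, other limits and tests, and a minimum of 20 reads. Tools were ViennaRNA 2.7.2, scipy 1.17.1, numpy 2.4.6 and matplotlib 3.10.9 under Python 3.11.15.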

Additional observations from a re-analysis of the deposited data

Results flagged for a closer look

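The shortened form of bra-MIR1885-p3 is listed under ath-MIR402 and so stands outside the entries named miR1885. It had 19 raw reads in the MF library and 6 in CMS, in both above the 3 reads taken as the detection floor. Of 44 sequences with substitutions written into their names, 3 carry 12, the highest number, and this form is one of them. It was 1 base away from bra-MIR1885-p3. No explanation was tested.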

How the results depend on the processing

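Of 77 values under another setting, 59 kept their direction and their side of the threshold, or stayed within their interval or 1.5 times the count. The 59 include the counts of 0 target sites, which no filter could change. Scaling to mappable reads gave log2 ratios of 0.79 for bra-MIR1885-p3 and 1.003 for bra-MIR1885-p5, both called as higher in CMS, and 0.81 and 1.89 for the sums of miR1885 and miR1140. Scaling to raw reads gave 1.42, 1.63 and, for bna-MIR1140-p5, 1.98, all called, sums of 1.44 and 2.52, and 59 called sequences in place of 35. The median log2 ratio over 86 sequences was 0.85 after scaling to mappable reads and 1.48 after scaling to raw reads. Scaling to total miRNA reads gave -0.62 for bra-MIR1885-p3, called as lower in CMS, -0.41 for bra-MIR1885-p5, -0.057 for bna-MIR1140-p5, 1.25 for bna-miR1140, these 3 not called, and -0.60 for the sum of miR1885. bna-miR1140, at 1.78, was not called with the limit over entries or with the exact binomial test. With at least 20 reads in each library, 8 of 39 arm pairs were called in place of 5 of 83, because fewer pairs were tested, and miR1140 was not among them (adjusted Fisher's exact p = 0.177). The ratio between the hairpins was added after the data were seen. No paired analysis was possible because each line had 1 library per assay, and no library could be left out. Comparisons of cleavage reads were not run because 0 sites were listed. Depth limits miR1140 most, with 12 reads of bna-miR1140 in MF.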
